A study of Mus musculus with 38 samples.

Results

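VIM-3039 is a cell line grown from a VIM kidney tumour, and VIM tumours are the mouse kidney tumours of the same genotype. The 7 libraries compared here, of 38 in the series, are 4 dishes of VIM-3039 cells kept on doxycycline (Dox) and 3 VIM tumours from 3 animals on Dox. They were chosen by name, as all cell libraries labelled VIM with Dox and all tumour libraries labelled VIM. The question was how the RNA of the cultured line differed from that of tumours in the animal while the genotype and the MYC transgene were held the same. Relative to the tumours, VIM-3039 cells had little or no RNA of most macrophage, endothelial and fibroblast markers and none of the proximal tubule regulator Hnf4a. They had less of the epithelial cadherin and claudin RNAs, more of the mesenchymal RNAs Vim, Fn1 and Cdh2, and more RNA for cholesterol synthesis and DNA replication.

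The VIM genotype joins 3 events. Vhl encodes the part of a ubiquitin ligase that marks the hypoxia-inducible factors (HIF) for destruction, so that cells without it keep HIF active in normal oxygen. MYC is a transcription factor that drives growth, ribosome production and the cell cycle. Ink4a and Arf, both made from Cdkn2a, restrain the cell cycle and protect p53. Clear cell renal carcinoma, the human disease these mice model, is held to arise from proximal tubule epithelium, and epithelial cells that lose cadherin and keratin for vimentin and fibronectin are said to pass through an epithelial-to-mesenchymal transition (EMT).

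All 7 libraries carry Vhl-/-, MYC + and Ink-/-/Arf-/- in the labels and were maintained on Dox. The Ksp-cadherin (Cdh16) promoter drives both the tamoxifen-inducible Cre that deletes Vhl and the rtTA that switches on Tet-O-MYC, so Vhl is deleted in tubule cells alone, whereas Ink4a/Arf is deleted in every cell of the animal. The tumours were whole tissue and hold the animal's own blood, vessel and connective tissue cells with intact Vhl. The cells were 1 line, so the 4 dishes measure the spread of plating and library preparation and not that between tumours, and they were collected 24 h after plating in medium with 2 µg/ml Dox. The labels give no age for the animals. VIM tumours 1, 2 and 3 came from mice 3237, 3233 and 3130, so none came from the animal whose number the line bears. Other libraries used here were VIM-3039 cells without Dox (4), VM-3055 cells with Dox (4) and VM tumours (3). The VM libraries carry the Vhl and MYC events with Ink4a/Arf intact. A further 5 libraries were normal kidneys labelled Wild Type and vehicle. Their titles begin with B6 or KT, and they were taken as 1 group.

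Values are gene-level RNA amounts in units of a scale that puts the upper quartile of each library at 1000. The cell libraries held an estimated 15900000 to 19900000 reads and the tumour libraries 8200000 to 11500000. The floor, a level worth 3 reads, was 1.97 to 2.42 units in the cells and 3.76 to 5.65 units in the tumours. Among genes averaging at least 50 units in a group, the median SD on the log2 scale was 0.063 among the dishes and 0.431 among the tumours. The tumours were not alike. Tumour 2 had far more distal nephron RNA than tumours 1 and 3, with a summed level of 9076 units against 638 and 222 units. Tumour 3 had the lowest Cdh1 and the highest haemoglobin and Car9 levels of the 3. Differences are given as log2 of cells over tumours, on values plus 1, with the standard error (SE) of limma's test. Where all libraries of a group are at 0, this difference depends on the 1 added and is no bound, so list medians that such genes enter are also given with them set at the floor of 3 reads. A gene passed when its Benjamini-Hochberg adjusted p over all genes tested was under 0.05 and its log2 difference was over 1 in size. A gene at 0 in every dish was tested only where every tumour was above 0, so it could pass only as lower.

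The engineered genes were read first, as a check of the labels. Vhl stood at 18.05, 8.32, 12.5 and 12.1 units in the 4 dishes and at 226, 219 and 312 units in the 3 tumours, against 686 ± 68.99 units (mean ± SD, n = 5) in normal kidneys. The groups did not overlap, and Vhl was lower in cells (log2 difference −4.23 ± 0.30, adjusted p = 1.29e-05). Cdkn2a, which was 3804 units in VM-3055 cells (mean, n = 4), was 24.9 to 34.7 units in VIM-3039 cells and 30.1 to 95.5 units in VIM tumours and did not pass. Cdkn2b, the neighbouring p15 gene, stood at 494 to 544 units in cells and 342 to 684 units in tumours and did not pass. Mouse Myc RNA, at 432, 359.8, 371 and 361 units in the cells and 397, 476 and 339.6 units in the tumours, differed by −0.08 ± 0.15 on the log2 scale and did not pass. The reads of the MYC transgene and of the mouse gene were not separated here.

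The difference reached much of the transcriptome. Of 15372 genes tested, 7299 passed (47.5%), 2145 of them higher in cells (13.95%) and 5154 lower (33.5%). These shares are the background against which the counts of each list are read. The median gene was lower in cells by 0.38 on the log2 scale, and levels of 678 genes averaged at least 50 units in the tumours while lying at or under the floor in all 4 dishes. The reverse held for 37 genes. Whether or not a gene passed, every dish lay above every tumour in 24.99% of genes and below every tumour in 43.7%. The split between the directions depended on the scaling. With quantile normalization 3805 of 7050 passing genes were higher in cells (53.97%, against 29.4%), and the median log2 difference was 0.18, while TMM rescaling gave −0.23 and 35.1% higher. With the 4 dishes averaged to 1 sample against 3 tumours, 1199 genes passed (7.80%), 153 higher (0.995%) and 1046 lower (6.80%), and 1198 of them had passed in the same direction with 4 dishes.

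**Figure D1:**
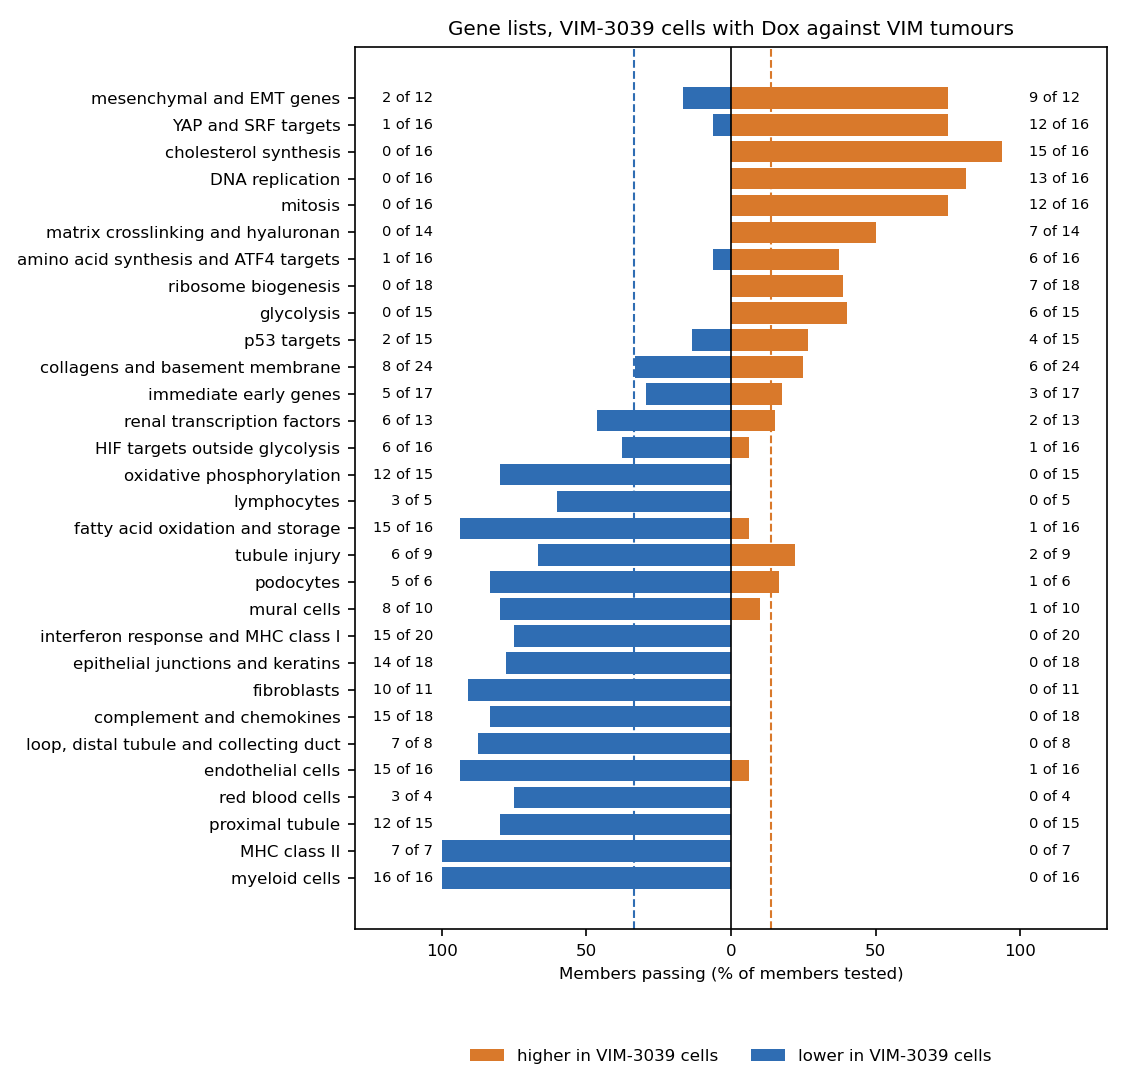
Share of each list's tested members that were higher in VIM-3039 cells (right, orange) or lower (left, blue) than in VIM tumours by limma (adjusted p under 0.05, log2 difference over 1 in size), with the number passing of the number tested at each bar. Dashed lines mark the shares over all genes, 13.95% higher and 33.5% lower; all 16 myeloid genes lie to the left and 15 of 16 cholesterol genes to the right.

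RNAs of blood and vessel cells set the tumours apart from the line. Fewer cells of a type and less RNA per cell cannot be told apart in bulk RNA, here and for each group that follows. All 16 myeloid genes tested were lower in cells, with a median log2 difference of −7.77, or −6.83 with genes at 0 set at the floor, against −0.38 over all genes tested. Their summed level was 289 to 317 units in the dishes, 14078 to 26693 units in the tumours and 3511 to 4942 units in normal kidneys. Lyz2, the lysozyme of macrophages and neutrophils, was at 0, 0, 0 and 0.808 units in the cells and at 11377, 4851 and 6531 units in the tumours. C1qa, a subunit of the complement protein C1q made by macrophages, was at 0 in all 4 dishes and at 2122, 1560.2 and 1226 units in the tumours. Emr1, which encodes the macrophage marker F4/80, was at 0 in the dishes and at 282, 315 and 226 units in the tumours. No dish reached the lowest tumour in any of these genes, and 13 of the 16 stood at or under the floor in every dish. The exceptions were Ptprc, the pan-leukocyte CD45, at 7.27 to 20.997 units, the lysosomal Cd68 at 7.87 to 17.4 units and the CSF1 receptor Csf1r at 259 to 294 units in the cells. Csf1r, at 593 to 836 units in the tumours, had the smallest difference of the list (−1.37 ± 0.15 on the log2 scale, adjusted p = 1.16e-04). With the line averaged to 1 sample, 13 of the 16 passed.

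Lymphocyte RNA was scarce in both groups. Of 16 genes, 5 were above 0 in enough libraries to be tested and 3 were lower in cells. Among the 3 was Cd4, at 13.2, 11.3 and 3.67 units in the tumours. Of the 16, 12 were at 0 in every dish, and such a gene could pass only as lower. Cd3e, Cd3d and Cd3g, the T cell receptor's signalling chains, were listed at 0 in all 7 libraries. Red cell RNA came mostly from tumour 3. Hba-a2, an alpha globin, was at 0 in every dish and at 362, 585 and 4505 units in the tumours.

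Of 16 endothelial genes, 15 were lower in cells (median log2 difference −5.44, or −4.40 with genes at 0 set at the floor). Pecam1, the junction protein CD31, stood at 0.694, 0, 0 and 0 units in the cells and 132, 217 and 255 units in the tumours. Cdh5, the endothelial cadherin, stood at 0, 0.693, 0 and 0 units in the cells and 52.7, 123 and 147 units in the tumours. The VEGF receptor gene Kdr was at 0 in every dish and at 62.1, 105 and 66.1 units in the tumours. All 3 were lower in every dish than in any tumour, and all were below the kidney means of 892, 437 and 985 units. The list's summed level was 1231 to 1274 units in cells and 1839.9 to 3238 units in tumours, and most of the sum in cells was Flt1. Flt1, the VEGF receptor VEGFR1, was the sole member higher in cells, at 1081, 1108, 1087 and 1112 units against 47.1, 120.3 and 69.8 units in the tumours. The dishes lay within a narrow range above every tumour, and the log2 difference was 3.88 ± 0.28 (adjusted p = 1.36e-05). With the line averaged, 9 endothelial genes passed as lower and Flt1 did not pass.

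Of 11 fibroblast genes tested, 10 were lower in cells. Dcn, the collagen-binding proteoglycan decorin, was at 0 in the dishes and at 107, 189 and 444 units in the tumours, and Col1a1, a chain of type I collagen, was at 6.94, 12.5, 3.94 and 2.42 units in cells and 190.2, 699 and 268 units in tumours. The fibroblast sum was 95.3 to 128 units in the dishes and 1183 to 3088 units in the tumours. Among genes of mural cells, the pericytes and smooth muscle of vessel walls, 8 of 10 were lower in cells. The pericyte gene Rgs5 was at 0 in the dishes and 37.7, 144 and 283 units in the tumours. Mcam, an adhesion protein that melanoma cells also carry, was higher in cells, at 1162 to 1222 units against 402 to 685 units. The smooth muscle actin Acta2 stood at 441 to 615 units in cells and 254 to 534 units in tumours and did not pass. Of 6 podocyte genes tested, 5 were lower in cells and 1 was higher. Podxl was higher in the cells than in every tumour, at 1838 to 1904 units against 565 to 1449.9 units, but did not pass without tumour 3.

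Genes of antigen presentation and the innate response were lower in cells as well. All 7 MHC class II genes were lower (median log2 difference −6.89, or −5.64 with genes at 0 set at the floor). H2-Aa, a class II alpha chain, was at 0 in the dishes and at 141, 331 and 130.3 units in the tumours, and the invariant chain Cd74 was at 0, 0, 0.656 and 0.808 units in the dishes and 505, 1124 and 178 units in the tumours. Of the list of interferon-responsive and MHC class I genes, 15 of 20 were lower and none was higher. The class I heavy chain H2-K1 stood at 1189, 1119, 1127 and 1150.4 units in cells and at 6471, 3570.2 and 4477 units in tumours, with no overlap. The log2 difference was −2.03 ± 0.19 (adjusted p = 5.14e-05). B2m, the light chain that pairs with it, was 3412, 3651, 3801 and 3534 units in cells and 3809.8, 3742 and 3247 units in tumours. The groups overlapped in B2m, which did not pass (log2 difference 0.00 ± 0.11). The immunoproteasome subunit gene Psmb8 was 0, 0, 0 and 0.808 units in cells and 151, 301 and 176 units in tumours. Irf1, a transcription factor of the response, did not pass, with a log2 difference of 0.48. The interferon-induced Isg15 was at 0.808 to 2.08 units in the dishes with Dox and averaged 33.9 units without Dox (n = 4), against 42.2 to 79.1 units in tumours. Averaging the line to 1 sample left 7 of the 20 and 4 of the 7.

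Of 18 complement and chemokine genes, 15 were lower in cells. C3, the central complement protein, stood at 1.39, 3.47, 0.656 and 1.62 units in the dishes and at 5443, 11024 and 4576 units in the tumours, where it exceeded the kidney level of 352 ± 129.6 units (mean ± SD, n = 5). C4b was at 0.694, 0.693, 0 and 0 units in the dishes and 2389, 3001 and 6018 units in the tumours. Cfb, which encodes factor B of the alternative pathway, was 1.39, 0.693, 1.97 and 0.808 units in the dishes and 1492, 1185 and 2069 units in the tumours. In each, the lowest tumour lay far above the highest dish. The neutrophil chemokine gene Cxcl1 was an exception, at 639.8 to 752 units in cells and 392 to 1114 units in tumours, and did not pass. Ccl2, which draws monocytes, was 129 to 156 units in cells and 31.2 to 145 units in tumours and did not pass. In all, 7 of the 18 passed with the line averaged.

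Tubule identity was next. Hnf4a is a transcription factor that holds the proximal tubule program, and Pax8 acts earlier and throughout the nephron. Hnf4a was at 0 in all 4 dishes and at 3879, 4391 and 3908 units in the tumours, against 16081 ± 1328 units in normal kidneys (mean ± SD, n = 5). Set against 3 reads in the shallowest dish, the tumour mean was at least 1675-fold higher. The 3 tumours lay close together, and the log2 difference was −11.99 ± 0.22 (adjusted p = 9.80e-08).

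Other nephron regulators did not all follow Hnf4a. Pax8 stood at 1882, 1829, 1869 and 1934 units in cells and 4154, 3756 and 1782 units in tumours and did not pass. The Ksp-cadherin gene Cdh16 was lower in cells at 3685 to 3702 units against 6526 to 10851 units. Pax2, a regulator of the embryonic kidney, was higher in cells, at 244, 200.3, 241 and 239 units against 1.88, 10.03 and 0 units in the tumours. Emx2, needed for the early urogenital tract, was higher too, at 542, 558, 605 and 515 units against 80.98, 82.7 and 16.5 units. No tumour reached a dish in Pax2 or Emx2. Esrrg, Irx3, Sim1 and Foxi1 were lower in cells. Of the 13 regulators, 2 were higher and 6 lower. Hnf4a and Esrrg still passed with the dishes averaged, and Pax2 and Emx2 did not.

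Of the 15 proximal tubule genes tested, 12 were lower in cells and none was higher (median log2 difference −6.37, or −6.28 with genes at 0 set at the floor). The phosphate transporter gene Slc34a1 was at 0 in every dish and at 441, 881 and 89.9 units in the tumours, against a kidney mean of 109056 units. G6pc, the last enzyme of glucose production, was at 0 in every dish and at 229.8, 487 and 23.9 units in the tumours, against 11659 units in kidneys. Pck1, an earlier enzyme of the same route, was at 0 in the dishes, at 567, 3226 and 562 units in the tumours and at 70158 units in kidneys. The tumours had the RNA of these genes where the line had none, and they had far less than normal kidney. In all 16 members the tumour mean lay below the kidney mean, a description with no test. The endocytic receptor Lrp2 did not follow, at 3669, 3166, 3339 and 3456 units in cells and 2723, 3748 and 1164 units in tumours, with overlapping groups and a kidney mean of 39526 units. Its partner Cubn and the water channel Aqp1 did not pass either, with log2 differences of −1.04 and 0.07. When the dishes were averaged, 4 of the 15 passed, Ggt1, Pck1, Kap and Acsm2.

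**Figure D2:**
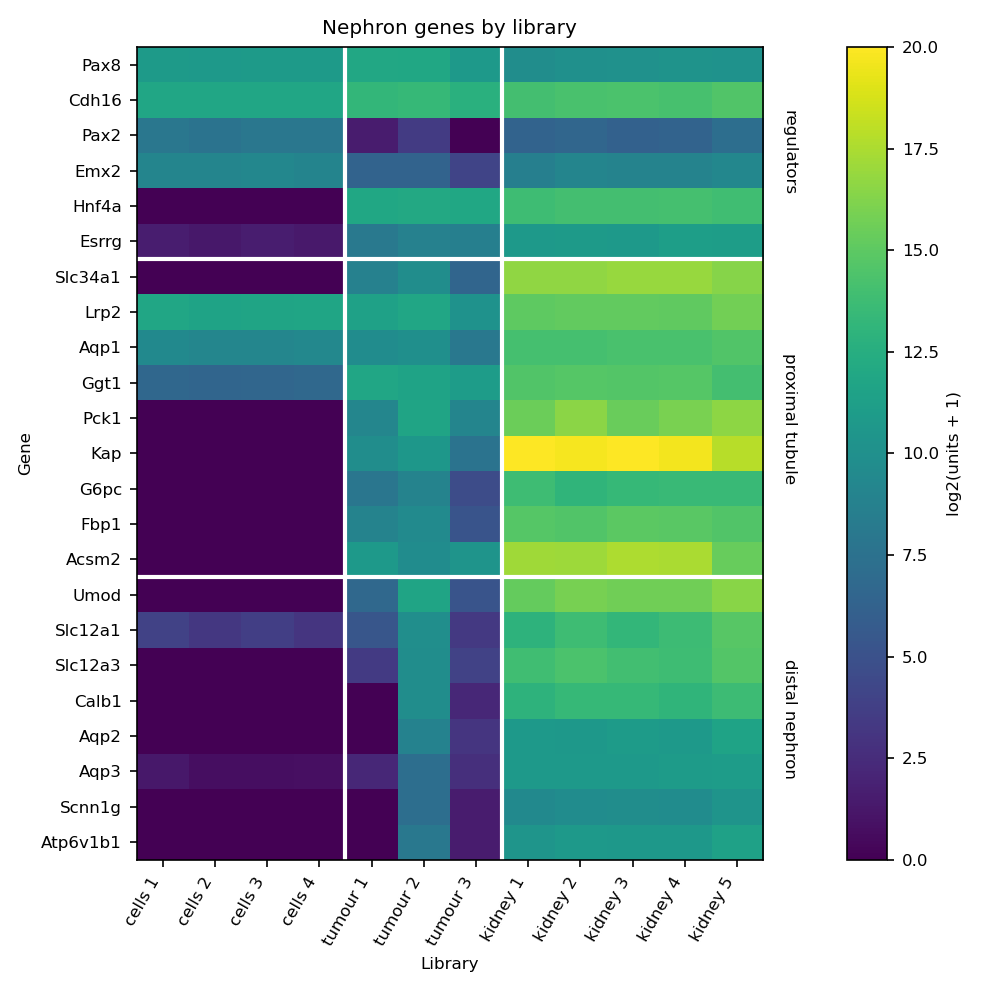
Levels of nephron regulators, proximal tubule genes and distal nephron genes in each library, as log2 of units plus 1 (colour bar, 0 to 20). Columns are the 4 dishes of VIM-3039 cells, the 3 VIM tumours and the 5 normal kidneys. Hnf4a is dark at 0 in the dishes and lies between 3879 and 4391 units in the tumours, and Umod is bright among the tumours in tumour 2.

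Genes of the loop of Henle, distal tubule and collecting duct came mostly from tumour 2. Umod, the uromodulin of the thick ascending limb, was at 0 in the dishes and at 109, 3228 and 34.9 units in the tumours. The salt transporter gene Slc12a3 was at 0 in the dishes and at 9.42, 899.7 and 14.7 units in the tumours, and the water channel Aqp2 at 0 in the dishes and 0, 464 and 7.34 units in the tumours. In each, tumour 2 stood many times above the other tumours, while kidneys averaged 59500.1, 18086 and 2085 units. Whether normal kidney was included in the tissue of tumour 2 was not tested. Of 15 genes, 8 could be tested and 7 were lower in cells. Of the 15, 11 were at 0 in every dish, and such a gene could pass only as lower. Without tumour 2, 7 were lower, and without tumour 3, 8.

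RNAs that tubules make on injury went both ways. Krt20, a keratin of injured tubule, was at 9.02, 5.55, 1.97 and 7.27 units in cells and 6505, 4175 and 977 units in tumours. Lcn2, the iron-binding lipocalin NGAL, was at 0, 0, 0.656 and 0 units in cells and 785, 1214 and 266 units in tumours. Vcam1, an adhesion protein, was at 4.16, 3.47, 5.91 and 4.85 units in cells and 635, 703 and 246 units in tumours. No dish came near the lowest tumour in any of them. Cd44, the hyaluronan receptor, was higher in cells at 4714 to 5237 units against 938 to 1368 units, and Sox9, a factor of tubule repair, was higher at 267 to 309.7 units against 16.5 to 62.7 units. Havcr1, which encodes KIM-1, ranged from 477 to 3603 units in tumours around the 578 to 689 units of the cells and did not pass. Of 9 genes, 2 were higher and 6 lower.

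Epithelial junction and keratin genes were lower in the line. Of 18 genes, 14 were lower and none higher (median log2 difference −3.59). Cdh1, the epithelial cadherin, stood at 83.3, 95.7, 74.1 and 88.9 units in cells and 2075, 3847 and 255 units in tumours. The keratin gene Krt8 stood at 37.5, 51.99, 62.3 and 44.4 units in cells and 3454, 2919.8 and 723 units in tumours, and the claudin gene Cldn3 at 0, 0.693, 1.31 and 0 units in cells and 2533, 2030.1 and 261 units in tumours. Tumour 3 was the lowest of the tumours in all 3 genes, yet no dish reached it. The log2 differences were −3.88 ± 0.80 for Cdh1 (adjusted p = 0.00344), −5.30 ± 0.51 for Krt8 (adjusted p = 6.34e-05) and −9.62 ± 0.79 for Cldn3 (adjusted p = 2.51e-05). Epcam, at 60.4 to 76.4 units in cells and 377, 668 and 49.6 units in tumours, and Esrp1, a splicing factor of epithelia, at 67.9 to 76.8 units in cells and 115, 434 and 12.8 units in tumours, overlapped with tumour 3 and did not pass. Krt19 was 1302 to 1347 units in cells, above the 461 to 919.8 units of the tumours, and did not pass (log2 difference 0.96 ± 0.22). Without tumour 3, 17 of the 18 were lower. Averaging the dishes left 1, the tight junction gene Ocln.

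Mesenchymal genes ran the other way, with 9 of 12 higher in cells and 2 lower. Cdh2, the neural cadherin, stood at 4805, 4957, 5154 and 4860.1 units in cells and at 7.53, 15.04 and 3.67 units in tumours. Vim, the intermediate filament vimentin, stood at 32634, 34019.9, 34760.5 and 34065 units in cells and 1847, 2653 and 1129 units in tumours. Fn1, the matrix protein fibronectin, stood at 59623, 63453, 64892 and 64906 units in cells and 761, 2208 and 327 units in tumours. Every dish lay far above every tumour, although the tumours also held the RNA of fibroblasts, which are known to express Vim and Fn1. The log2 differences were 9.16 ± 0.36 for Cdh2 (adjusted p = 7.21e-07), 4.26 ± 0.26 for Vim (adjusted p = 5.72e-06) and 6.27 ± 0.54 for Fn1 (adjusted p = 3.43e-05).

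Among transcription factors of EMT, Twist2 was at 1001, 939, 955 and 985 units in the cells and at 0 in all 3 tumours, a cell mean at least 172-fold higher when set against 3 reads in the shallowest tumour. Twist1 stood at 69.4, 61.004, 68.2 and 75.1 units in cells and 0, 2.51 and 3.67 units in tumours. Snai1 stood at 264, 269, 258 and 269 units in cells and 16.9, 12.5 and 14.7 units in tumours. In all 3 factors the groups were well apart and the spread among dishes was small beside the difference. Zeb1 and Snai2 were higher in cells too. Zeb2 stood at 669 to 755 units in cells and 635 to 1127 units in tumours and did not pass. Prrx1 and Cdh11, which fibroblasts express, were lower in cells, at 0.808 to 4.16 and 1.31 to 3.23 units against 24.5 to 40.1 and 9.42 to 31.2 units, and did not pass with quantile normalization. Vim, Cdh2, Snai1 and Twist2 passed with the line as 1 sample.

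**Figure D3:**
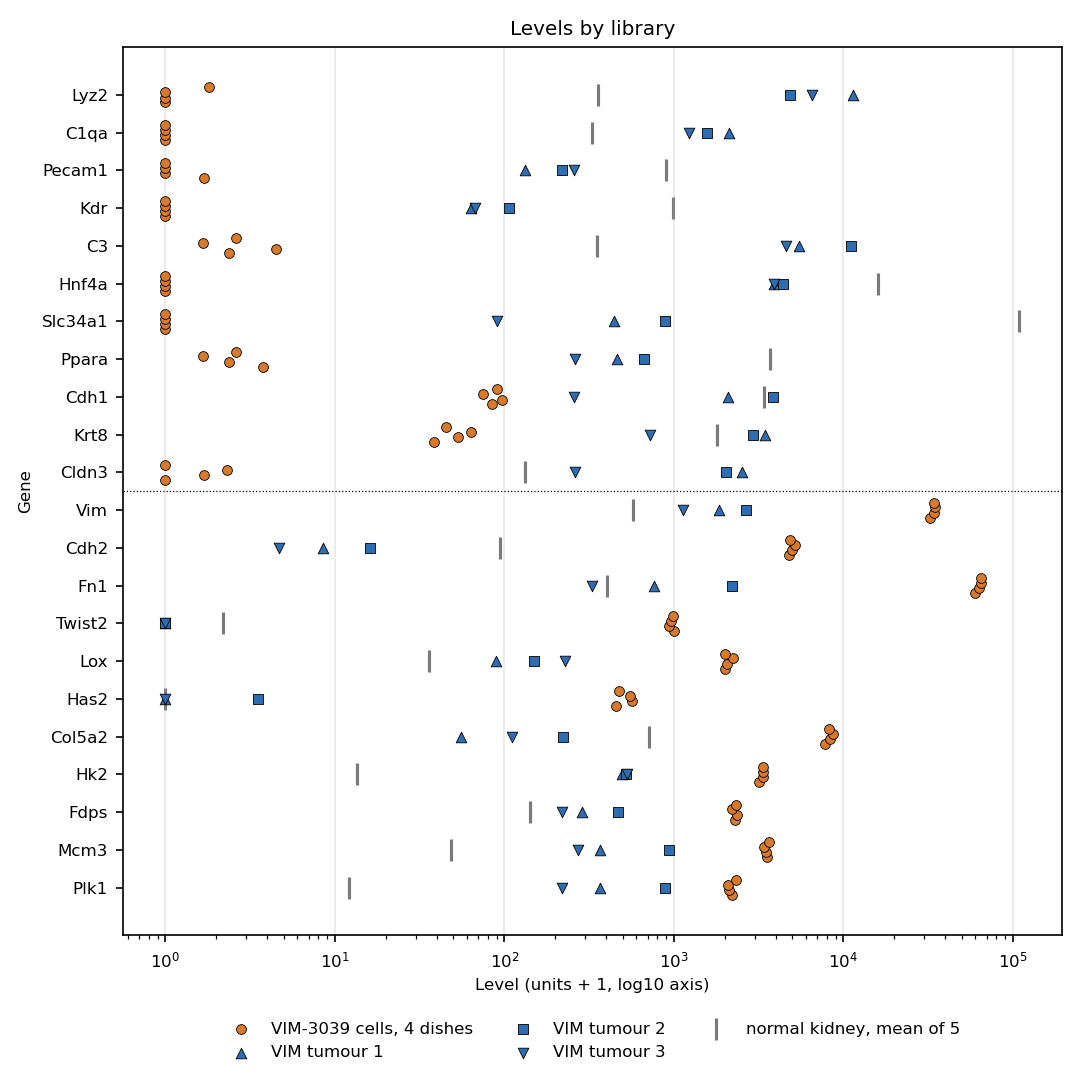
Level of 22 genes in each library, in units on a log10 axis of units plus 1, for the 4 dishes of VIM-3039 cells (circles), VIM tumours 1, 2 and 3 (upward triangle, square and downward triangle) and the mean of 5 normal kidneys (bar). Circles lie to the left of all tumours for the first 11 genes, from Lyz2 to Cldn3, and to the right for the others, from Vim to Plk1.

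Genes that crosslink or modify matrix were higher or did not pass. Of 14, 7 were higher and none lower. Lox, the lysyl oxidase that crosslinks collagen, stood at 2001, 2070.0, 2226 and 1988 units in cells and 88.5, 148 and 226 units in tumours. Has2, which makes hyaluronan, stood at 455, 564, 553 and 476 units in cells and 0, 2.51 and 0 units in tumours. Plod2, a lysyl hydroxylase, stood at 5194, 5566, 5837 and 5384 units in cells and 1779, 1224 and 2219 units in tumours. All dishes exceeded all tumours in these 3 genes, and the log2 differences were 3.84 ± 0.28 (adjusted p = 1.36e-05), 8.39 ± 0.46 (adjusted p = 3.25e-06) and 1.70 ± 0.19 (adjusted p = 1.49e-04) in that order. Loxl2, at 3181 to 3958 units in cells and 2034 to 2858 units in tumours, and the proline hydroxylase gene P4ha2, at 1724 to 1919 and 2008 to 3418 units, did not pass. Without tumour 3, Plod3 no longer passed. Averaged to 1 sample, the line passed in Loxl1 and Has2.

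Of 24 collagen and basement membrane genes, 6 were higher in cells, against 13.95% of all genes, and 8 were lower, a share close to the 33.5% of all genes. The median log2 difference of the list was −0.14, and with the line averaged 2 passed as higher and 1 as lower. Col5a2, a chain of the fibrillar type V collagen, stood at 7767, 8310.3, 8656 and 8201 units in cells and 54.6, 222 and 110.1 units in tumours. Col5a1, its partner chain, stood at 2178, 2155, 2112 and 2072 units in cells and 54.6, 118 and 56.9 units in tumours. In contrast, nidogen Nid1, which links laminin to type IV collagen, stood at 0.694, 2.08, 1.97 and 0.808 units in cells and 288, 373 and 286 units in tumours. Each pair of groups was apart by far more than its own spread. Col4a1, the main chain of basement membrane collagen, was lower at 1728 to 1980.3 units against 2642 to 6346 units, just past the threshold (log2 difference −1.02 ± 0.27, adjusted p = 0.0119), and did not pass with either other scaling or without tumour 2. Against the same tumours, cells without Dox had 15 genes higher and 4 lower, and Col4a1 averaged 8340.2 units in them. Cells with Dox were not tested here against cells without.

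Targets of YAP and SRF, transcription regulators known to respond to attachment and to the actin skeleton, were higher in the line in 12 of 16 cases, and the tropomyosin gene Tpm2 was lower. Thbs1, the matrix protein thrombospondin, stood at 23747, 26681, 29635 and 26234 units in cells and 450.1, 685 and 378 units in tumours. The receptor tyrosine kinase gene Axl stood at 9089, 9508, 9281 and 9029 units in cells and 311, 704 and 393 units in tumours. Ankrd1, a repeat protein of stretched muscle and a common YAP target, stood at 3821, 4437, 4739 and 3957 units in cells and 384, 289 and 110.1 units in tumours. No tumour came near a dish in these genes, with log2 differences of 5.76 ± 0.20, 4.38 ± 0.25 and 4.19 ± 0.38 (adjusted p = 4.68e-07, 4.07e-06 and 4.41e-05). Ctgf and Cyr61, secreted proteins often read as YAP targets, were 11186 to 13886 and 5956 to 6761 units in cells and 1481 to 1822 and 485 to 742 units in tumours. With the line averaged, 5 of the 16 passed as higher.

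HIF targets were read because all these libraries carry the Vhl deletion in tubule cells. Outside glycolysis, 1 of 16 genes tested was higher in cells and 6 were lower, close to the background shares. Ndrg1, a stress gene induced by hypoxia and by differentiation, stood at 869, 839, 788 and 844 units in cells and 82714, 47048 and 110403 units in tumours. Car9, the carbonic anhydrase that marks clear cell carcinoma, stood at 13.9, 3.47, 7.87 and 5.66 units in cells and 213, 95.2 and 1355 units in tumours, and kidneys averaged 239.9 units. Igfbp3, which binds insulin-like growth factors, stood at 1.39, 0.693, 0.656 and 1.62 units in cells and 1017, 718 and 2893 units in tumours. The dishes lay below every tumour, with log2 differences of −6.50 ± 0.26 (adjusted p = 7.69e-07), −5.26 ± 0.86 (adjusted p = 0.00103) and −9.29 ± 0.49 (adjusted p = 2.64e-06).

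Of the 16 genes, 9 did not pass in either direction. Vegfa, the vessel growth factor, stood at 2424, 2209, 2268 and 2141 units in cells and 1809.8, 1594 and 2858 units in tumours and did not pass (log2 difference 0.16 ± 0.20). Egln3, a prolyl hydroxylase that HIF induces, stood at 2187, 2351, 2086 and 2242 units in cells and 4580.0, 2091 and 7956 units in tumours. Egln3 spread widely among the tumours, did not pass (log2 difference −0.94 ± 0.39) and averaged 469 units in kidneys. Bnip3, a mitophagy receptor, stood at 2644 to 3087 units in cells and at 9284, 2975 and 34274 units in tumours, where tumour 3 stood apart, and did not pass (log2 difference −1.76 ± 0.69, adjusted p = 0.0521). The cyclin gene Ccnd1 differed by −0.01 ± 0.14 on the log2 scale. Pfkfb3, which makes the activator of phosphofructokinase, was the member higher in cells, at 1824 to 1869.6 units against 697 to 791 units.

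The sequences before Car9 and Egln3 are shown because both hold ACGTG, the core of the hypoxia response element, while the line had little Car9 and kept Egln3. Both strands were searched in the 250 bases before each RefSeq start, and a gene with several matches was counted as 1. In all, 7 of 14 of these HIF targets with an entry and 8 of 15 glycolysis genes held it, against 4998 of 27025 of all genes (18.5%). The 5 letters are common in promoters. A match describes the sequence, and binding was not measured. Matches on either strand are in capitals, each window is 5′ to 3′ along its gene, and the sequences are from RefSeq on GRCm38.p6, with Car9 at chr4:43506776-43507025 on the plus strand and Egln3 at chr12:54203875-54204124 on the minus strand.
Car9: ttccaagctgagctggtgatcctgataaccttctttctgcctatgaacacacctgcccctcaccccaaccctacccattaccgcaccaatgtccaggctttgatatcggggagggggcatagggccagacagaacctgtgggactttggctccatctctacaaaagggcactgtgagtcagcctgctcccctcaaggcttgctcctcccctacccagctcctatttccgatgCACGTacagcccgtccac
Egln3: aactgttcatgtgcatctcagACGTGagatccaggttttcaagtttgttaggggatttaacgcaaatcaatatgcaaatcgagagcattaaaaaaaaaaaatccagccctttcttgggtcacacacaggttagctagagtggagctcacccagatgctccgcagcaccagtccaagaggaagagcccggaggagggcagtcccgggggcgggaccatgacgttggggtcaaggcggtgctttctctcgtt
The match lies 18 bases before the start in Car9 and 229 bases before it in Egln3, counted from the match's first base.

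Glycolysis genes were higher in cells or did not pass. Of 15, 6 were higher and none lower. Hk2, the hexokinase of growing and muscle cells, stood at 3176, 3355, 3343 and 3373 units in cells and 495, 524 and 525 units in tumours, against 12.5 units in kidneys. Slc16a3, which exports lactate, stood at 10261, 10313, 10076 and 10094 units in cells and 3512, 1729 and 3142 units in tumours. Pfkl, a phosphofructokinase, stood at 7989, 7934, 7705 and 7919 units in cells and 2426, 2648 and 2603 units in tumours. In these genes the dishes exceeded all tumours, and the tumours exceeded the kidney means, 6.08 units for Slc16a3 and 795 for Pfkl. Slc2a1, the glucose transporter GLUT1, was higher by 1.05 ± 0.14 on the log2 scale, and its call was lost without tumour 2 or without tumour 3. Ldha, Aldoa, Pgk1 and Tpi1 did not pass, with log2 differences of 0.29, −0.04, 0.03 and 0.14. Hk2 and Pfkl passed with the line as 1 sample.

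Mitochondrial genes were lower in cells. Of 15 genes of oxidative phosphorylation, 12 were lower and none higher (median log2 difference −1.29). The cytochrome oxidase subunit Cox4i1 stood at 6393, 5839.7, 5737 and 5619.5 units in cells and 26779.7, 12912 and 54944 units in tumours, and the succinate dehydrogenase subunit Sdhb at 1953, 1921, 1941 and 1867 units in cells and 7755, 4925 and 11143 units in tumours. The dishes lay below every tumour in both, and tumours 1 and 3 were near or above the kidney means of 19162 and 9193 units. None of the 15 passed with the line as 1 sample.

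Of 16 genes of fatty acid oxidation and storage, 15 were lower in cells (median log2 difference −2.67). Ppara, the receptor that switches on fatty acid oxidation, stood at 2.78, 1.39, 0.656 and 1.62 units in cells and 463, 663 and 261 units in tumours. Cpt1a, which carries fatty acids into mitochondria, stood at 218, 233, 187 and 212 units in cells and 4247, 6309.5 and 3337 units in tumours. Cd36, a fatty acid importer that endothelium and macrophages also express, was at 0 in the dishes and at 1456, 1187 and 16606 units in the tumours. Each was lower in all dishes than in all tumours, with log2 differences of −7.43 ± 0.42, −4.39 ± 0.21 and −11.58 ± 0.85 (adjusted p = 3.84e-06, 1.80e-06 and 1.41e-05). Plin2, the coat protein of lipid droplets, was the member higher in cells, at 3042, 3358, 3514 and 3184 units against 861, 1339.6 and 829.7 units. As 1 sample, the line passed in 8 of the 16.

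Cholesterol synthesis had the largest share of members higher in cells of the lists read, 15 of 16, with a median log2 difference of 2.0. Cyp51, the lanosterol demethylase, stood at 7377, 7097, 6806 and 7258 units in cells and 770.2, 1383 and 600.3 units in tumours. Fdps, which makes farnesyl diphosphate, stood at 2295, 2347, 2200.1 and 2320.2 units in cells and 286, 466 and 218 units in tumours. Sc4mol, a sterol methyl oxidase, stood at 6989.7, 6633, 6289 and 6267 units in cells and 371, 590.2 and 505 units in tumours. All dishes lay above all tumours, and the log2 differences were 3.05 ± 0.26, 2.89 ± 0.23 and 3.77 ± 0.16 (adjusted p = 2.88e-05, 2.30e-05 and 1.05e-06). Sqle, the squalene oxidase, lost its call without tumour 3. The count was similar without Dox and under other scalings. Cells without Dox had 14 of 16 higher against the same tumours, TMM rescaling gave 15 and quantile normalization 15. Averaging the line left 4 of the 16. The culture medium held serum.

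Replication and mitosis genes were higher in cells, in 13 of 16 and 12 of 16 cases, and none was lower. Mcm3, a subunit of the replicative helicase, stood at 3537, 3492, 3382 and 3618 units in cells and 368, 940.0 and 269.8 units in tumours, against 47.4 units in kidneys. Cdc6, which loads the helicase, stood at 828, 786, 842 and 861 units in cells and 60.3, 179 and 27.5 units in tumours. Plk1, a mitotic kinase, stood at 2208, 2107, 2083 and 2308 units in cells and 364, 883 and 218 units in tumours. Tumour 2 was the highest and tumour 3 the lowest of the tumours in these genes, all below every dish. The log2 differences were 2.95 ± 0.37, 3.61 ± 0.53 and 2.40 ± 0.40 (adjusted p = 2.65e-04, 5.96e-04 and 0.00123). Ccnb2 and Cenpa did not pass, at 895 to 976 and 1526 to 1619 units in cells and 987 to 1156 and 784 to 1502 units in tumours. Cells without Dox had 5 of 16 replication and 3 of 16 mitosis genes higher than the tumours. With the line averaged, 0 and 1 passed.

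Ribosome biogenesis is a process MYC is known to drive. Of 18 genes, 7 were higher in cells with Dox and none lower (median log2 difference 0.86), and none passed with the line averaged. Ncl, the nucleolar protein nucleolin, stood at 42501, 44707, 44045 and 46186 units in cells and 21770.2, 35349.6 and 11501 units in tumours, whereas Npm1, nucleophosmin, stood at 19599.7, 19978, 19783 and 19665 units in cells and 27354, 18808 and 31356 units in tumours with overlapping groups. Ncl, Nop2, Rrp12, Polr1a and Bop1 lost their calls without tumour 3, which left 2 genes higher, Nolc1 and Utp20, and without tumour 1 the count was 4. Cells without Dox averaged 10523 units of Ncl (n = 4), and none of the 18 was higher and 7 were lower than in the tumours.

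Of 15 p53 targets, 4 were higher in cells (26.7%, against 13.95% of all genes) and 2 lower (13.3%, against 33.5%). Cdkn1a, the cell cycle inhibitor p21, stood at 2384, 2389, 2388 and 2395 units in cells and 2307, 2254 and 2563 units in tumours and did not pass (log2 difference 0.01 ± 0.10). Phlda3, an AKT inhibitor, was higher at 1167 to 1282 units against 184 to 576 units, and the death receptor gene Fas was lower at 2.42 to 19.03 units against 70.2 to 496 units. Of 17 immediate early genes, which respond within minutes to serum or to handling of tissue, 3 were higher and 5 lower. Fosl1 stood at 482, 518, 479 and 521 units in cells and 2.15, 5.81 and 1.95 units in tumours, while Atf3 stood at 238, 247, 233 and 219.7 units in cells and 1669, 1402 and 1347 units in tumours. Among 16 genes of amino acid synthesis and of the ATF4 response, 6 were higher and 1 lower. Slc7a5, a carrier of large neutral amino acids, was 7821 to 8119 units in cells against 1211 to 3259 units in tumours, and Mthfd2, of mitochondrial folate metabolism, was 3134 to 3278 units against 356 to 939 units.

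The largest differences over all genes were taken among those whose groups did not overlap and whose higher group averaged 50 units or more. Lower in cells were Sult1d1, Spink3, Lyz2, Napsa, Agt, Aldh1l1, Ddc, Prodh2 and Hnf4a. Sult1d1, a sulfotransferase, stood at 0, 0, 0 and 2.42 units in cells and 34684, 18480.0 and 77679.7 units in tumours. Agt, the precursor of angiotensin, stood at 2.08, 4.85, 1.31 and 1.62 units in cells and at 16311, 21791 and 17401 units in tumours, above the kidney level of 719 ± 287 units (mean ± SD, n = 5). Ddc, which makes dopamine, was at 0 in the dishes and at 4921, 3494 and 6129 units in the tumours. Normal kidneys had RNA of all of these, with means from 355 units for Lyz2 and 719 for Agt to 52741 for Napsa.

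Higher in cells were Asz1, Eras, Twist2, Gm6644, Ptgs2, Cdh2, Hmga2, Has2 and Sema3a. Hmga2, a chromatin protein of embryonic and transformed cells, stood at 1344, 1502, 1614 and 1385 units in cells and 7.53, 1.25 and 1.84 units in tumours. Ptgs2, the inducible cyclooxygenase, stood at 2488, 2969.8, 2932 and 2646 units in cells and 1.88, 3.76 and 3.67 units in tumours. Asz1, a germ cell gene, stood at 1817, 1875, 1829 and 1575 units in cells and 0, 0 and 1.84 units in tumours. Eras, a Ras gene of embryonic stem cells, stood at 1085, 1011, 970.5 and 1061 units in cells and was at 0 in all tumours. Asz1 and Eras were at 0 in normal kidneys and in VM-3055 cells as well. In tumours with MYC alone (M, 3 libraries) Eras reached 379 units in 1 library. Eras overlaps Pcsk1n on the other strand, and Cdh2 and Has2 overlap antisense genes. The library kit keeps strand, but the strand setting of the counting was not given in the sources used here. On mm9, Hnf4a lies at chr2:163332544-163398646 on the plus strand, Twist2 lies at chr1:93698038-93744605 on the plus strand, Has2 lies at chr15:56497182-56526094 on the minus strand and Asz1 lies at chr6:18000964-18059061 on the minus strand, all positions of whole genes in the annotation.

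VM-3055 cells and VM tumours gave the same comparison with Ink4a/Arf intact. There 6473 of 15292 genes passed (42.3%), 1974 higher in cells (12.9%) and 4499 lower (29.4%). Of the genes higher in VIM-3039 cells 1253 were higher in VM-3055 cells too, 58.4% of the VIM and 63.5% of the VM genes, and of the lower genes 3587 were shared, 69.6% of the VIM and 79.7% of the VM genes. The cell to tumour difference itself differed between the genotypes in 1755 of 15113 genes (11.6%), 767 with a higher difference in VIM (5.08%) and 988 with a lower (6.54%). Of these, 133 passed in opposite directions in VIM and VM. Each genotype has 1 line, and VM-3055 bears the number of 1 of its tumours' mice, so genotype and line cannot be told apart. With each line averaged to 1 sample, the test rests on the spread of the tumours alone, and these calls were not kept. With a separate variance for cells and tumours 861 genes passed, and without VIM tumour 2 the count was 2321.

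The genes with the largest genotype differences were taken by rule. The log2 difference of Lox was 3.84 in VIM and −6.19 in VM (difference 10.03 ± 0.71, adjusted p = 1.32e-06). It was 0.219 units in VM-3055 cells and 114 units in VM tumours (means, n = 4 and 3). Serpinh1, the collagen chaperone HSP47, stood at 888, 927, 939 and 887 units in VIM-3039 cells and 359, 407 and 791 units in VIM tumours and did not pass there, but averaged 0.213 units in VM-3055 cells and 937 units in VM tumours. Col5a2 averaged 1.84 units in VM-3055 cells and 72.3 units in VM tumours. Grb10, an imprinted adaptor of insulin signalling, averaged 0.398 and 1918 units in VM cells and tumours, against 6198 to 6769 units in VIM-3039 cells. For these 4 genes VM-3055 cells were at or near the floor and VIM-3039 cells were far above it, while the tumours of both genotypes expressed them. Asz1 was the fifth gene of this direction.

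In the other direction, Krt7, a keratin of ducts, stood at 1.39, 2.77, 1.97 and 0.808 units in VIM-3039 cells and 82.9, 678 and 53.2 units in VIM tumours, but averaged 310.1 units in VM-3055 cells and 7.32 units in VM tumours (difference −11.70 ± 1.23, adjusted p = 2.59e-05). Peg3, an imprinted zinc finger gene, averaged 699 and 2.19 units in VM cells and tumours and stood at 1.31 to 2.33 and 3.77 to 109.9 units in VIM. Epb4.1l3, Akr1c18 and Cpne5 had the same order. In these genes VM-3055 cells exceeded VM tumours, whereas VIM-3039 cells lay below VIM tumours. For Peg3, the VIM-3039 cells, the lowest VIM tumour and the VM tumour mean were all near or under the floor. The VIM differences of Peg3 and Cpne5 did not pass with quantile normalization. Hnf4a, at 24.5 units in VM-3055 cells and 0 in VIM-3039 cells, was lower in cells in both genotypes, more so in VIM (difference −5.14 ± 0.39, adjusted p = 2.16e-06). Among the lists, the genotype difference passed in 5 of 14 matrix crosslinking genes, all higher in VIM. It passed in 8 of 18 epithelial genes as lower in VIM and in 1 as higher. Of 12 mesenchymal genes, 3 passed as higher in VIM and 1 as lower, and 8 did not pass. None of the 16 cholesterol and 16 mitosis genes passed. The study had named Lox, Loxl1, Loxl2 and Has2 as higher and Cdh1 as lower in VIM-3039 than in VM-3055 cells. It had also named Cdh2, Vim, Snai1, Snai2, Twist1, Zeb1 and Zeb2 as higher. The lists hold these genes, so the matrix, mesenchymal and epithelial counts are not independent of that choice.

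**Figure D4:**
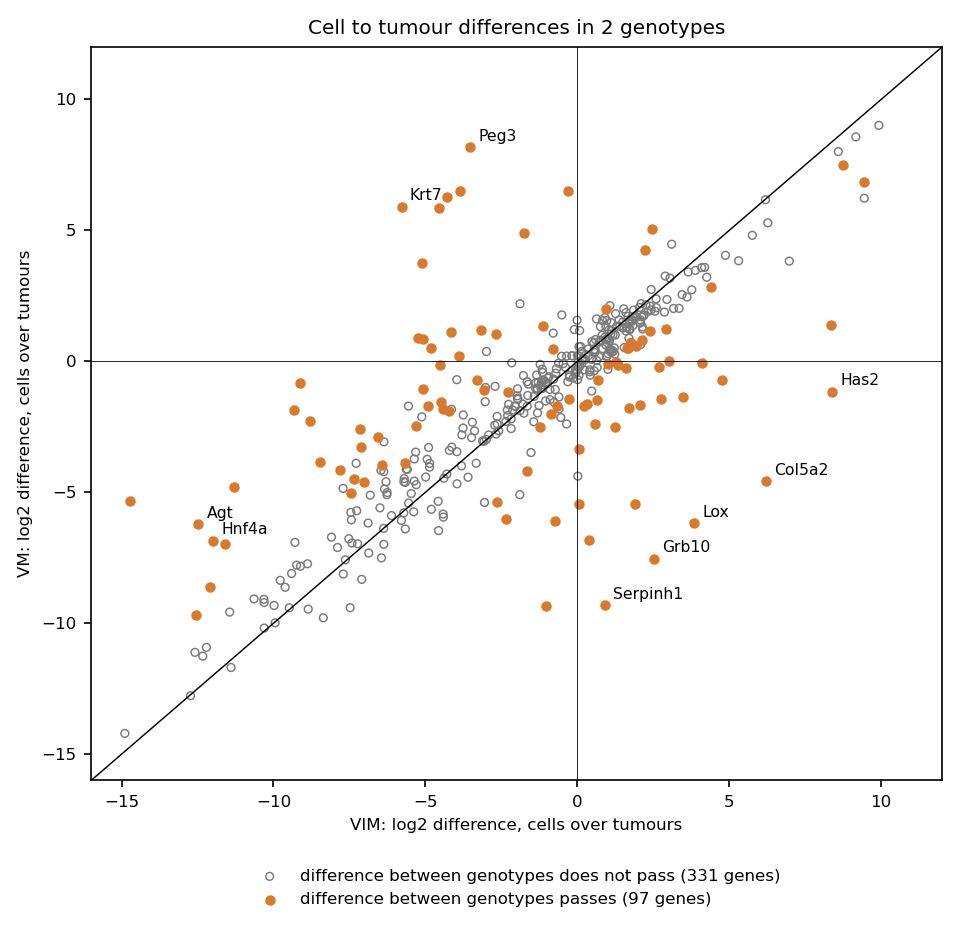
Log2 difference of cells over tumours in VIM (horizontal) and in VM (vertical) for members of the gene lists and genes named by rule that were tested in both. Filled points passed limma's test of the difference between genotypes (adjusted p under 0.05, log2 difference over 1 in size), open points did not, the line marks equal differences, and 9 genes are named. Lox lies at 3.84 in VIM and −6.19 in VM and Hnf4a at −11.99 and −6.85.

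Across 13354 genes averaging at least 50 units in some group, VIM-3039 libraries correlated with VIM tumour libraries at a Pearson r of 0.671 to 0.713 on log2 units plus 1. They correlated at 0.680 to 0.743 with VM tumours, at 0.427 to 0.449 with normal kidneys and at 0.939 to 0.941 with VM-3055 cells. VIM tumours correlated with each other at 0.885 to 0.946 and with kidneys at 0.637 to 0.724, tumour 2 being the nearest to kidney. These are correlations over genes within the same table, and genes are not independent replicates. By this measure VIM-3039 cells were nearer to another cultured line than to tumours of their own genotype. Set beside normal kidney, 2599 of the 5154 genes lower in cells (50.4%) had a kidney mean at or above the tumour mean and 2012 (39.0%) a kidney mean between cells and tumours. Of the 2145 genes higher in cells, 1195 (55.7%) had a kidney mean at or below that of the tumours and 214 (9.98%) one at or above that of the cells, all given without a test.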

How the data were processed

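RNA of 38 mouse libraries (24 of cultured cells, 9 of tumours, 5 of normal kidneys) was sequenced from paired ends after a stranded mRNA preparation. The authors aligned reads to mm9 with MapSplice, processed them with SAMtools, Picard 1.64 and UBU, estimated the amount of each UCSC knownGene gene by RSEM, and set the upper quartile of every library to 1000. The deposited signal is that scaled gene-level value, so fold changes are relative within a library.

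Groups were taken from the labels, which give the genotype and Dox; the line number 3039 is from the study's text. Tests used limma 3.58.1 in R 4.3.3 on log2 of the value plus 1, for genes with a value over 0 in 3 or more of the 7 libraries (6 of 14 for the difference between genotypes), with a variance trend and Benjamini-Hochberg adjustment, two-sided. The 2 groups were fitted alone. The 4 dishes of 1 line show the spread between dishes, which may be technical. The main fit took 1 variance per gene for both groups, so p-values rest on that spread pooled with the tumour spread. Estimated reads, 8200000 to 19900000 in these 7 libraries, came from the value of 1 read, taken as the commonest value under 3 units. The floor covers counting error only.

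The members and gene lists were chosen with earlier results of these data known. Genes were named as the engineered genes, the 10 largest passing differences in each direction where the higher group averaged 50 units or more and the groups did not overlap, the 5 largest differences between genotypes in each direction, and list members. A gene that meets more than 1 of these counts under each. Results on some genes that meet the rule are not reported here. Alternatives were pseudocounts of 0.1 and 10, no filter, a mean of at least 10 units, TMM and quantile scaling, the line averaged to 1 sample, a separate variance for cells and tumours, no moderation, each library left out, cells without Dox and 1 fit over all 10 groups. The procedure was tested on simulated data. Positions are from GENCODE vM1 on mm9, promoters from RefSeq on GRCm38.p6. Summaries and figures used Python 3.11.15 with pandas 2.3.3, numpy 2.4.6 and matplotlib 3.10.9.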

Additional observations from a re-analysis of the deposited data

Results flagged for a closer look

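In 7 of 119 named genes above the floor in the cells, 1 of the 4 dishes stood apart from the other 3 by Dixon's criterion, which chance meets in about 1 in 20 groups. These were Myc at 432 units in dish 1, Hk2 at 3176 units in dish 1, P4ha2 at 1919 units in dish 1, Pax2 at 200.3 units in dish 2, Cubn at 81.4 units in dish 3, Mthfd2 at 3278 units in dish 3 and Nop2 at 3898 units in dish 4. No single dish stood apart in most of them. Groups of 3 tumours are too small for the criterion.

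The difference of cells over tumours itself differed between VIM and VM in 1755 genes (limma, adjusted p under 0.05 and log2 over 1 in size). As VIM minus VM on the log2 scale it was 11.31 for Asz1, 10.80 for Col5a2, 10.20 for Serpinh1, 10.06 for Grb10 and 10.03 for Lox, and −11.71 for Peg3, −11.70 for Krt7, −10.59 for Epb4.1l3, −10.41 for Akr1c18 and −10.37 for Cpne5. For the tubule regulator Hnf4a it was −5.14. Each genotype is represented by 1 line, and a difference of line cannot be told apart from one of genotype.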

How the results depend on the processing

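With the dishes of a line averaged to 1 sample, whose spread is then assumed to be that of the tumours, 1199 genes passed in VIM in place of 7299, 877 in VM in place of 6473 and 0 for the difference between genotypes in place of 1755 (limma, 779 at an unadjusted p under 0.05). This setting has fewer samples. With a separate variance for cells and tumours the difference between genotypes passed in 861 genes, and the cause was not tested. Leaving out 1 library gave 6917 to 7988 genes in VIM, 6073 to 6856 in VM and 1429 to 2321 for the difference between genotypes, with the highest count without VIM tumour 2. The other alternatives kept these counts within 1.5 times. In VIM, 4342 genes passed in the same direction in 14 settings (the reported one, both pseudocounts, both scalings, the separate variance, no moderation and each library left out), 1403 higher in cells and 2939 lower.

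Of 2253 values of named genes under alternatives, 2138 kept their call, 15 gained one, 100 lost it and 0 changed direction. Of 129 named genes that passed, 67 lost the call with the line averaged and 17 in some other setting. Besides the averaged line, which moved 29 of 31 list counts, lymphocyte genes fell to 0 passing with a pseudocount of 10 or a mean of at least 10 units, and ribosome biogenesis to 4 without tumour 1 and 2 without tumour 3.

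No paired analysis was possible because the tumours carry mouse numbers and no replicate number that the dishes share. A test on recovered reads was not run, since whole reads could not be recovered in every library. Tumour depth limits statements on genes near 3.76 to 5.65 units, and 3 tumours cannot separate tumour-to-tumour variation from the tissue each piece held. With 4 against 3 an exact two-sided rank test of 1 gene cannot give a p under 0.0571.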
